A study of Homo sapiens and Mus musculus with 24 samples.

Results

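The genes described here are 6 members of the human UGT2B family: UGT2B7, UGT2B10, UGT2B11, UGT2B15, UGT2B17 and UGT2B28. They were found by symbol in a table of 44564 gene names measured by RNA sequencing of LNCaP cells, an androgen-responsive epithelial line of human prostate cancer that the labels give as wild type. All 6 were present, and 3 of them (UGT2B11, UGT2B15 and UGT2B17) reached 1 RPKM (reads scaled to gene length and to the depth of the library) in at least 2 libraries and entered the test over 16042 genes. The 12 libraries form 6 groups of 2 biological replicates, all collected at day 7. The cells were grown with CRPCCAF and 1 µM enzalutamide, with CRPCCAF and the vehicle DMSO, with CCAF and enzalutamide, with CCAF and DMSO, alone with enzalutamide, or alone with DMSO. Enzalutamide blocks the androgen receptor. CCAF and CRPCCAF are 2 kinds of fibroblast whose names the labels do not spell out. Titles of the CCAF cocultures carry the tag p53 and those of the CRPCCAF cocultures the tag p53_ca. The titles do not explain these tags. The fibroblast libraries of the same series are of mouse. The sources used here do not say how RNA or reads of LNCaP cells were kept apart from those of fibroblasts.

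UGT2B enzymes sit in the membrane of the endoplasmic reticulum and transfer glucuronic acid from UDP-glucuronate to small lipophilic molecules, which become water-soluble and are exported. UGT2B15 and UGT2B17 act on testosterone, dihydrotestosterone and its breakdown products, and the glucuronides no longer bind the androgen receptor, so both enzymes end the androgen signal inside prostate cells. In LNCaP cells androgens are known to lower the transcripts of both. UGT2B28 also acts on androgens, UGT2B7 has a broad range of steroid and drug substrates, UGT2B10 conjugates amines such as nicotine, and the substrates of UGT2B11 are less well defined.

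The 6 genes lie in 1 cluster on chromosome 4, in the order UGT2B17, UGT2B15, UGT2B10, UGT2B7, UGT2B11 and UGT2B28 in the RefSeq annotation, with other UGT2 genes and pseudogenes between them. Their coding sequences, read from the longest coding transcripts of GENCODE 29, are close copies. UGT2B17 and UGT2B15 are identical at 96.5% of 1593 aligned coding bases, UGT2B11 and UGT2B28 at 97.0%, and UGT2B10 and UGT2B11 at 1508 of 1587 bases. Either of UGT2B17 and UGT2B15 matches the 4 others at 84.4 to 85.8% of coding bases. The stretch below, coding bases 242 to 301 counted from the A of the start codon, is shown because it holds the most differences between UGT2B17 and UGT2B15 of any 60 bases; the 9 differing bases are in capitals.
UGT2B17: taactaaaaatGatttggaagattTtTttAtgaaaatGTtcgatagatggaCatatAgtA
UGT2B15: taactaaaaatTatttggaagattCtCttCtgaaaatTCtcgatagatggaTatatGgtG
Elsewhere the pair runs identical for up to 199 coding bases, and 55 coding bases differ in all.

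Reads from stretches that are the same in both genes cannot be assigned to one of them, and the sources used here do not say how such reads were counted. Of the 50-base windows of the UGT2B17 transcript, 27.8% also occur in a transcript of another gene, as do 27.8% of those of UGT2B15; 557 such windows of either gene lie in the other. For UGT2B11 the share is 47.3%, for UGT2B28 35.7%, for UGT2B10 31.7% and for UGT2B7 6.75%. With 100-base windows the shares fall to 12.7% for both UGT2B17 and UGT2B15, 17.4% for UGT2B11, 5.71% for UGT2B28 and 6.60% for UGT2B10, and no window of UGT2B7 is shared. UGT2B11 shares most with the pseudogene UGT2B25P at 50 bases, so its level is the least certain of the 6 by this measure.

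**Figure D1:**
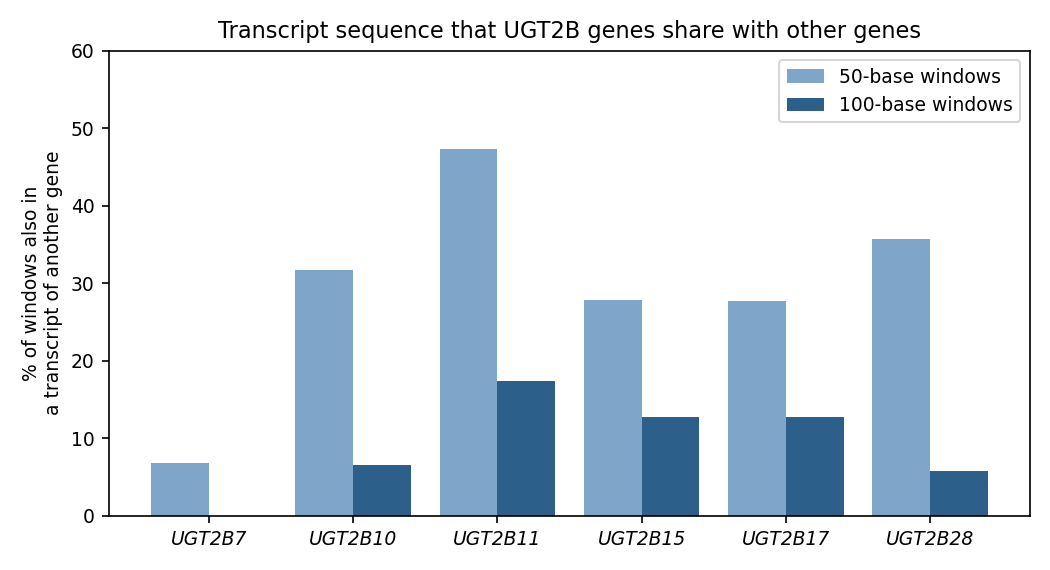
Percentage of all 50-base (light bars) and 100-base (dark bars) windows of each UGT2B transcript that also occur in a GENCODE transcript of another gene. UGT2B11 has the largest share at 50 bases, 47.3%, and UGT2B7 the smallest, 6.75%.

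The promoters of UGT2B15 and UGT2B11 are shown because these genes of the cluster moved differently under enzalutamide, UGT2B15 strongly and UGT2B11 little. Both are the 250 bases before the transcription start in RefSeq (GRCh38.p14, minus strand), at chr4:68670653-68670902 for UGT2B15 and chr4:69214749-69214998 for UGT2B11, whereas the submitters' processing notes name the build hg19 for the human reads. Capitals mark the 6-base core AGAACA of the androgen response element, which was searched on both strands.
UGT2B15: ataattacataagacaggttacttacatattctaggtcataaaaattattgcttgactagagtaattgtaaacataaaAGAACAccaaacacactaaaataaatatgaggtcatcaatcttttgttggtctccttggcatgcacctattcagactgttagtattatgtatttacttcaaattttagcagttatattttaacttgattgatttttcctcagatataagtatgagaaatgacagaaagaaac
UGT2B11: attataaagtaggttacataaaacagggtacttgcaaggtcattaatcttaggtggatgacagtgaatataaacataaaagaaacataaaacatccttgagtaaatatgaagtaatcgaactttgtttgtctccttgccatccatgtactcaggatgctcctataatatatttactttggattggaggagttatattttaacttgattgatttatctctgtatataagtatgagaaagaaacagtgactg
UGT2B15 holds 1 such core, whose first base is at position -172 relative to the start. UGT2B11, UGT2B10 and UGT2B7 hold none in this window, and UGT2B17 and UGT2B28 were not searched. The core occurs in 12.4% of 35116 promoter windows of this length. The full element, an inverted repeat of the core with 3 free bases between, contains the core; it is in none of these 4 windows and in 1 of the 35116.

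UGT2B17 and UGT2B15 made up almost all UGT2B transcript. In RPKM, which is per length, the sum of the 6 genes was 87.7 and 88.9 in CRPCCAF cocultures with enzalutamide, against 6.13 and 6.28 with DMSO. It was 115 and 119 in CCAF cocultures with enzalutamide, against 11.4 and 12.6 with DMSO, and 121 and 125 in cells grown alone with enzalutamide, against 18.6 and 18.8 with DMSO. UGT2B17 and UGT2B15 together held 98.1 to 99.1% of the sum in the 6 enzalutamide libraries and 80.1 to 91.2% in the 6 DMSO libraries. The order of mean levels was UGT2B17, UGT2B15, UGT2B11 in every group, with no overlap between the libraries of neighbours in that order. UGT2B10 and UGT2B28 came next. UGT2B10 was the higher of the 2 in all groups but those under DMSO with fibroblasts: with CRPCCAF UGT2B28 was higher (0.417 against 0.0886 RPKM on average), and with CCAF their libraries overlapped (0.398 and 0.397 RPKM). UGT2B7 had the lowest mean in every group.

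Behind these levels stand 17209874 to 21208118 reads per library in the 25003 genes whose read number could be recovered from the steps of the values, which hold 92.8 to 95.6% of each library's RPKM. The androgen-induced genes KLK3, FKBP5 and TMPRSS2 all fell under enzalutamide in each of the 3 cultures (log2 changes of -1.93 to -4.33, limma adjusted p of at most 7e-09). All 10 luminal epithelial markers listed reached a mean of 1 RPKM in every group. In bulk RNA, fewer cells of a type and less RNA per cell cannot be told apart.

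UGT2B17 rose under enzalutamide in all 3 cultures, by 8.28- to 21.3-fold, and had rank 2 among the rises of all genes tested in each of them. With CRPCCAF it stood at 63.8 and 64.0 RPKM under enzalutamide, against 2.82 and 3.19 RPKM under DMSO, which rest on 2369 and 2611 reads against 106 and 123 reads. With CCAF it stood at 81.1 and 80.5 RPKM under enzalutamide, against 6.37 and 6.97 RPKM under DMSO. In cells alone it stood at 84.8 and 89.5 RPKM under enzalutamide, against 9.77 and 11.3 RPKM under DMSO. Every enzalutamide library lay above every DMSO library, and the replicates of a group lay close together. On the log2(RPKM + 1) scale the change was 4.02 with CRPCCAF (SE 0.0698, limma adjusted p = 2.9e-10), 3.42 with CCAF (SE 0.0698, adjusted p = 1.8e-09) and 2.94 alone (SE 0.0698, adjusted p = 1.9e-09). On the RPKM scale these were 21.3-fold, 12.1-fold and 8.28-fold.

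UGT2B15 rose with it, at lower levels and by smaller folds. With CRPCCAF it stood at 23.2 and 23.9 RPKM under enzalutamide, against 2.25 and 1.84 RPKM under DMSO. With CCAF it stood at 31.6 and 36.1 RPKM under enzalutamide, against 3.57 and 4.30 RPKM under DMSO. In cells alone it stood at 34.3 and 33.1 RPKM under enzalutamide, against 6.57 and 5.86 RPKM under DMSO. Again no enzalutamide library overlapped a DMSO library. The log2 change was 3.01 with CRPCCAF (11.5-fold, SE 0.0951, adjusted p = 1e-08, rank 5 among rises), 2.82 with CCAF (8.60-fold, SE 0.0951, adjusted p = 3.9e-08, rank 5) and 2.27 alone (5.42-fold, SE 0.0951, adjusted p = 5.8e-08, rank 16).

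The sum of UGT2B17 and UGT2B15 depends little on which of the pair a shared read was given to. It was 86.9 and 87.9 RPKM with CRPCCAF and enzalutamide, against 5.07 and 5.03 RPKM with CRPCCAF and DMSO. In CCAF cocultures it was 113 and 117 RPKM with enzalutamide, against 9.94 and 11.3 RPKM with DMSO, and in cells alone 119 and 123 RPKM with enzalutamide, against 16.3 and 17.1 RPKM with DMSO. The proportions of the pair also differed between treatments: UGT2B17 stood at 2.23 to 2.75 times UGT2B15 in the 6 enzalutamide libraries and at 1.25 to 1.93 times in the 6 DMSO libraries, without overlap. Unlike the sum, this ratio depends on how shared reads were counted, and its difference was not tested.

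**Figure D2:**
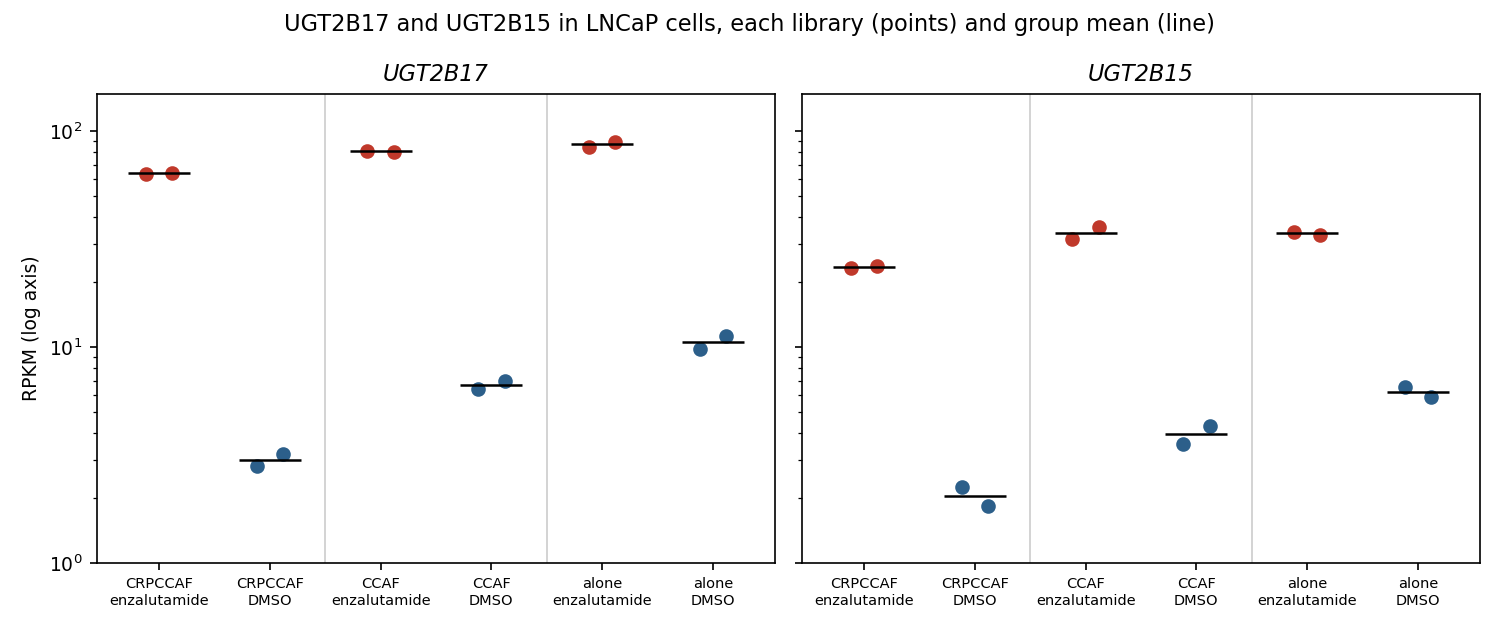
RPKM of UGT2B17 (left) and UGT2B15 (right) on a log axis in each library of the 6 groups, enzalutamide in red and DMSO in blue; the line is the mean of the 2 libraries. All enzalutamide libraries lie above all DMSO libraries, and the DMSO levels are lowest with CRPCCAF, at 2.82 and 3.19 RPKM for UGT2B17.

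UGT2B11 was at about 1 RPKM or below. It was called under enzalutamide only with CCAF, and no difference of its response between cultures was called. With CRPCCAF it stood at 0.544 and 0.688 RPKM under enzalutamide, against 0.568 and 0.700 RPKM under DMSO. With CCAF it stood at 1.26 and 1.10 RPKM under enzalutamide, against 0.559 and 0.454 RPKM under DMSO. In cells alone it stood at 1.29 and 1.39 RPKM under enzalutamide, against 1.26 and 0.906 RPKM under DMSO. The groups overlapped with CRPCCAF and were apart with CCAF and alone. The log2 change was 0.53 with CCAF (2.33-fold, SE 0.128, adjusted p = 0.007), and 1.08 with a pseudocount of 0.1 in place of 1. It was -0.02 with CRPCCAF (95% interval -0.30 to 0.27, adjusted p = 0.93) and 0.17 alone (95% interval -0.12 to 0.46, adjusted p = 0.28). UGT2B11 passed the filter on low values only through the libraries where it was high, so its calls are described here and are left out of the counts of members set beside the share of all genes.

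UGT2B17 and UGT2B15 were above 1 RPKM in all 12 libraries. Both rose under enzalutamide with CRPCCAF, where 30.5% of all genes tested rose, with CCAF, where 26.8% rose, and alone, where 30.1% rose.

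UGT2B28 ran the other way, on few reads. With CRPCCAF it had 1 and 2 reads under enzalutamide (0.0305 and 0.0555 RPKM), against 15 and 13 reads under DMSO (0.452 and 0.382 RPKM). With CCAF it had 6 and 7 reads under enzalutamide, against 14 and 14 under DMSO, and in cells alone 5 and 6 reads under enzalutamide, against 9 and 8 under DMSO. Every enzalutamide library lay below both DMSO libraries of its culture. The ratio of enzalutamide to DMSO reads per depth was 0.105 with CRPCCAF (exact 95% interval 0.0204 to 0.339), 0.459 with CCAF (0.218 to 0.915) and 0.620 alone (0.263 to 1.40); these intervals cover counting error only. UGT2B28 was below the filter on low values. In a fit of all 33693 genes above 0 in any library, without that filter, it fell with CRPCCAF (log2 -0.44, adjusted p = 0.00018, where 11.6% of those genes fell) and with CCAF (log2 -0.24, adjusted p = 0.0064, where 9.81% fell). Alone its log2 change was -0.11 (adjusted p = 0.14, where 11.8% fell).

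UGT2B10 had 0.223 and 0.296 RPKM with CRPCCAF and enzalutamide, against 0.0401 and 0.137 RPKM with CRPCCAF and DMSO. It had 0.719 and 0.604 RPKM with CCAF and enzalutamide, against 0.413 and 0.381 RPKM with CCAF and DMSO, and 0.651 and 0.605 RPKM alone with enzalutamide, against 0.688 and 0.527 RPKM alone with DMSO. The treatments were apart in both cocultures and overlapped in cells alone. In the fit without the filter its log2 changes under enzalutamide were 0.21 with CRPCCAF (adjusted p = 0.092), 0.25 with CCAF (adjusted p = 0.06) and 0.02 alone (adjusted p = 1). The read ratio, enzalutamide over DMSO, was 2.93 with CRPCCAF (1.34 to 7.08), 1.67 with CCAF (1.13 to 2.51) and 1.04 alone (0.739 to 1.48).

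UGT2B7 had 0 to 3 reads in every library and was listed at 0 in 4 of the 12, among them both libraries with CRPCCAF and enzalutamide. A count of 0 in those libraries allows up to 0.0888 and 0.0809 RPKM. No change of UGT2B7 was detectable at this depth.

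**Figure D3:**
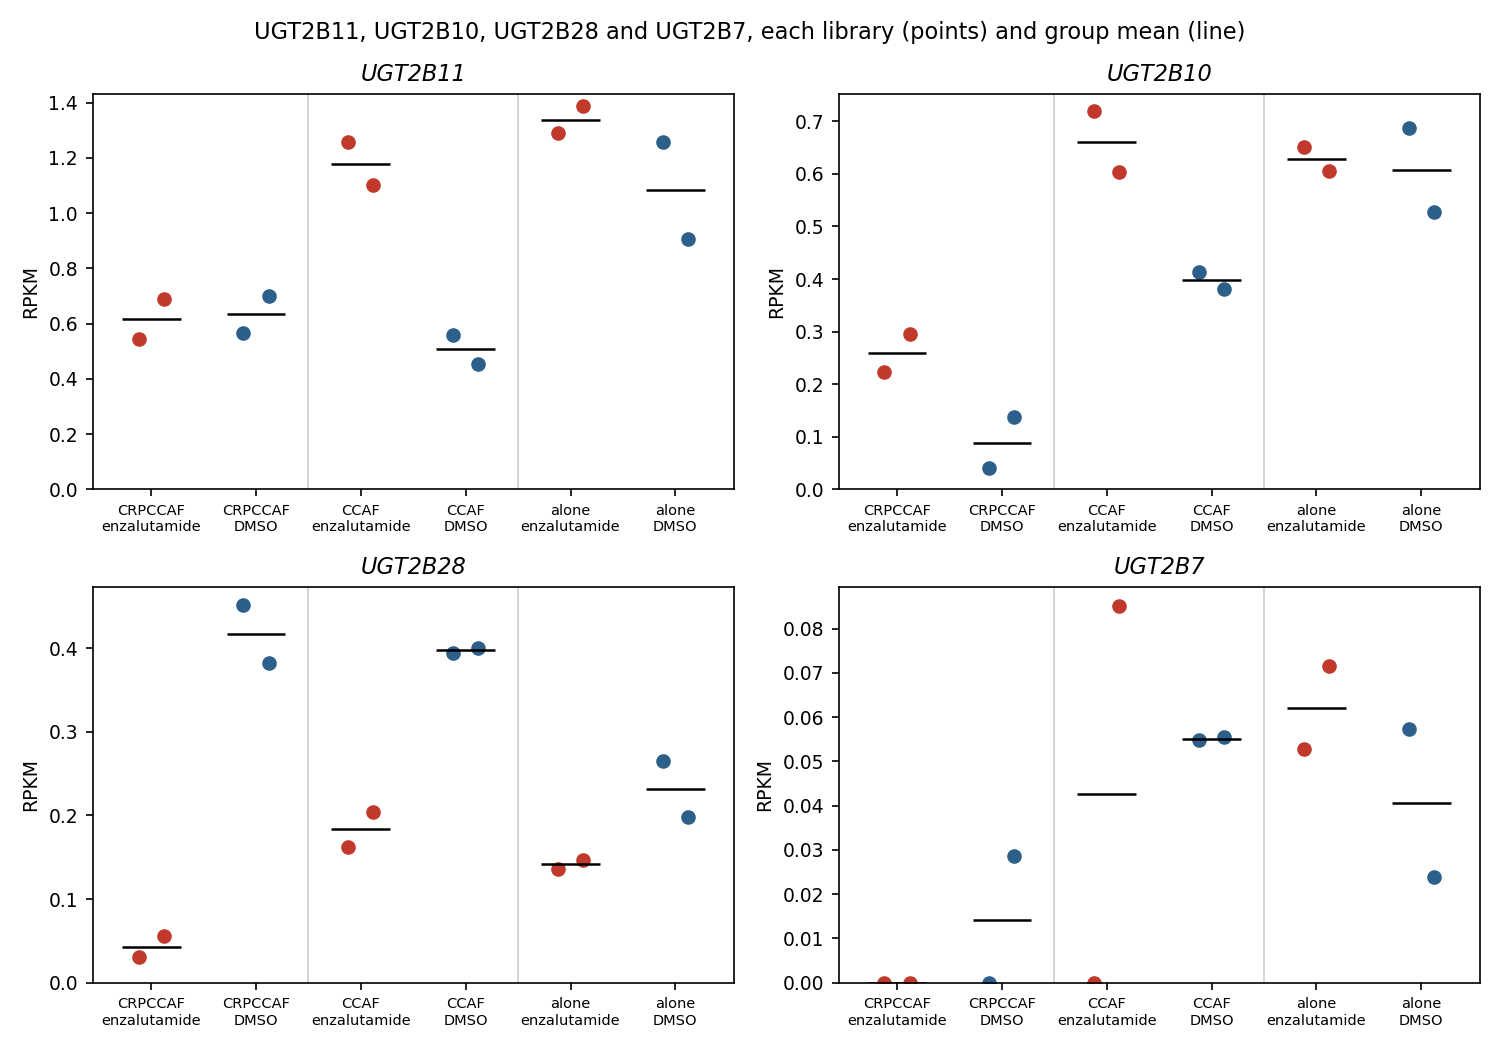
RPKM of UGT2B11, UGT2B10, UGT2B28 and UGT2B7 in each library, enzalutamide in red and DMSO in blue, each panel with its own linear axis from 0; the line is the mean of the 2 libraries. UGT2B28 is lower under enzalutamide in each culture, and UGT2B10 is lowest with CRPCCAF and DMSO, at 0.0401 and 0.137 RPKM.

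Coculture lowered UGT2B17 and UGT2B15 in the absence of the drug. The comparisons with cells grown alone share the same 2 libraries of those cells. With CRPCCAF under DMSO, UGT2B17 was at 2.82 and 3.19 RPKM, against 9.77 and 11.3 RPKM in cells alone, a fall by 1.52 on the log2 scale (SE 0.0698, adjusted p = 4e-07, rank 5 among the falls of all genes tested). UGT2B15 was at 2.25 and 1.84 RPKM with CRPCCAF, against 6.57 and 5.86 RPKM alone (log2 -1.25, 3.04-fold lower, SE 0.0951, adjusted p = 1.4e-05). UGT2B11 was at 0.568 and 0.700 RPKM with CRPCCAF, against 1.26 and 0.906 RPKM alone (log2 -0.35, adjusted p = 0.069). Thus UGT2B17 and UGT2B15 both fell with CRPCCAF, where 16.3% of all genes tested fell. KLK3, FKBP5 and TMPRSS2, which androgens induce, were higher in the same libraries than in cells alone, by 0.74, 0.57 and 1.47 with CRPCCAF and by 0.64, 0.56 and 0.66 with CCAF on the log2 scale (adjusted p of at most 0.00019).

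With CCAF under DMSO the falls of UGT2B17 and UGT2B15 were smaller. UGT2B17 was at 6.37 and 6.97 RPKM with CCAF, against 9.77 and 11.3 RPKM alone (log2 -0.59, 1.58-fold lower, adjusted p = 0.00078). UGT2B15 was at 3.57 and 4.30 RPKM with CCAF, against 6.57 and 5.86 RPKM alone (log2 -0.55, 1.58-fold lower, adjusted p = 0.0067); without replicate 1 of the cells alone its adjusted p was 0.058, and without replicate 1 of the CCAF cocultures 0.06. UGT2B11 was at 0.559 and 0.454 RPKM with CCAF, against 1.26 and 0.906 RPKM alone (log2 -0.46, adjusted p = 0.053); its adjusted p was 0.045 with a pseudocount of 0.1 and 0.048 after median-of-ratios scaling. UGT2B17 and UGT2B15 both fell with CCAF, where 3.99% of all genes tested fell, and their libraries did not overlap between the groups.

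Set directly against CCAF under DMSO, CRPCCAF cocultures had less UGT2B17 (log2 -0.94, 2.22-fold lower, SE 0.0698, adjusted p = 4e-05) and less UGT2B15 (log2 -0.70, 1.92-fold lower, SE 0.0951, adjusted p = 0.0017). The change of UGT2B11 was 0.12 (95% interval -0.17 to 0.40, adjusted p = 0.6). In this comparison 6.41% of all genes tested fell. UGT2B17 and UGT2B15 therefore had 3 separate DMSO levels, lowest with CRPCCAF and highest in cells alone, with no overlap between neighbours.

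Of the members below the filter, UGT2B10 was also lower with CRPCCAF under DMSO, with 2 and 7 reads, against 22 and 20 reads with CCAF and 35 and 32 reads alone. In the fit without the filter it fell against cells alone (log2 -0.56, adjusted p = 0.0027, where 6.37% of genes fell) and against CCAF (log2 -0.36, adjusted p = 0.043, where 2.16% fell). UGT2B28 was at 15 and 13 reads with CRPCCAF, against 9 and 8 reads alone, and rose in that fit (log2 0.20, adjusted p = 0.024, where 6.54% rose), while the exact interval of its read ratio, 0.963 to 3.55, holds 1. With CCAF it had 14 and 14 reads, against 9 and 8 reads alone (log2 0.18, adjusted p = 0.085).

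Under enzalutamide the cultures differed less in UGT2B17 and UGT2B15. With CRPCCAF and enzalutamide, UGT2B17 was at 63.8 and 64.0 RPKM, against 84.8 and 89.5 RPKM alone with enzalutamide (log2 -0.44, 1.36-fold lower, SE 0.0698, adjusted p = 0.00096). UGT2B15 was at 23.2 and 23.9 RPKM with CRPCCAF, against 34.3 and 33.1 RPKM alone (log2 -0.50, 1.43-fold lower, SE 0.0951, adjusted p = 0.0029). UGT2B11 was at 0.544 and 0.688 RPKM with CRPCCAF, against 1.29 and 1.39 RPKM alone (log2 -0.53, 2.17-fold lower, adjusted p = 0.0096). UGT2B17 and UGT2B15 both fell, where 19.6% of all genes tested fell; UGT2B11 passed the filter through the cells alone with enzalutamide, among others, so its fall is not counted with them. The call of UGT2B11 was lost without replicate 2 of the cells alone (adjusted p = 0.058) or replicate 1 of the CRPCCAF cocultures (adjusted p = 0.067), and its change was -1.01 with a pseudocount of 0.1. UGT2B10, with 11 and 16 reads with CRPCCAF, against 36 and 37 reads alone, fell in the fit without the filter (log2 -0.37, adjusted p = 0.015, where 8.01% fell).

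CRPCCAF cocultures with enzalutamide also had less UGT2B17 and UGT2B15 than CCAF cocultures with enzalutamide, where 18.5% of all genes tested fell. The log2 change was -0.33 for UGT2B17 (1.27-fold lower, adjusted p = 0.0053) and -0.50 for UGT2B15 (1.44-fold lower, adjusted p = 0.0031). For UGT2B11, which passed the filter partly through these CCAF libraries, it was -0.43 (1.91-fold lower, adjusted p = 0.028). That of UGT2B11 was -0.84 with a pseudocount of 0.1, and its adjusted p was 0.06 to 0.15 without any 1 of the 4 libraries. In the fit without the filter UGT2B10 (log2 -0.40, adjusted p = 0.012) and UGT2B28 (log2 -0.18, adjusted p = 0.034) fell as well, where 7.62% of genes fell. The fall of UGT2B28 rests on 1 and 2 reads with CRPCCAF, against 6 and 7 reads with CCAF.

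CCAF cocultures and cells alone were not told apart under enzalutamide by limma. The log2 change was -0.11 for UGT2B17 (95% interval -0.26 to 0.05, adjusted p = 0.33), 0.0046 for UGT2B15 (-0.21 to 0.22, adjusted p = 0.98) and -0.10 for UGT2B11 (-0.39 to 0.19, adjusted p = 0.64). The UGT2B17 libraries did not overlap, at 81.1 and 80.5 RPKM with CCAF, against 84.8 and 89.5 RPKM alone. Its read ratio, CCAF over alone, was 0.926 (exact 95% interval 0.896 to 0.957, for counting error only). By limma neither UGT2B17 nor UGT2B15 was called or had an unadjusted p under 0.05. Of all genes tested, 19.4% were called in either direction, and so few members cannot be told apart from that share. KLK3, FKBP5 and TMPRSS2 were higher with CCAF than alone under enzalutamide too, by 2.92, 0.43 and 0.31 on the log2 scale (adjusted p of at most 0.00095). With CRPCCAF under enzalutamide KLK3 was higher than alone by 1.60 and TMPRSS2 by 1.51, and the change of FKBP5 was -0.08 (adjusted p = 0.28).

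**Figure D4:**
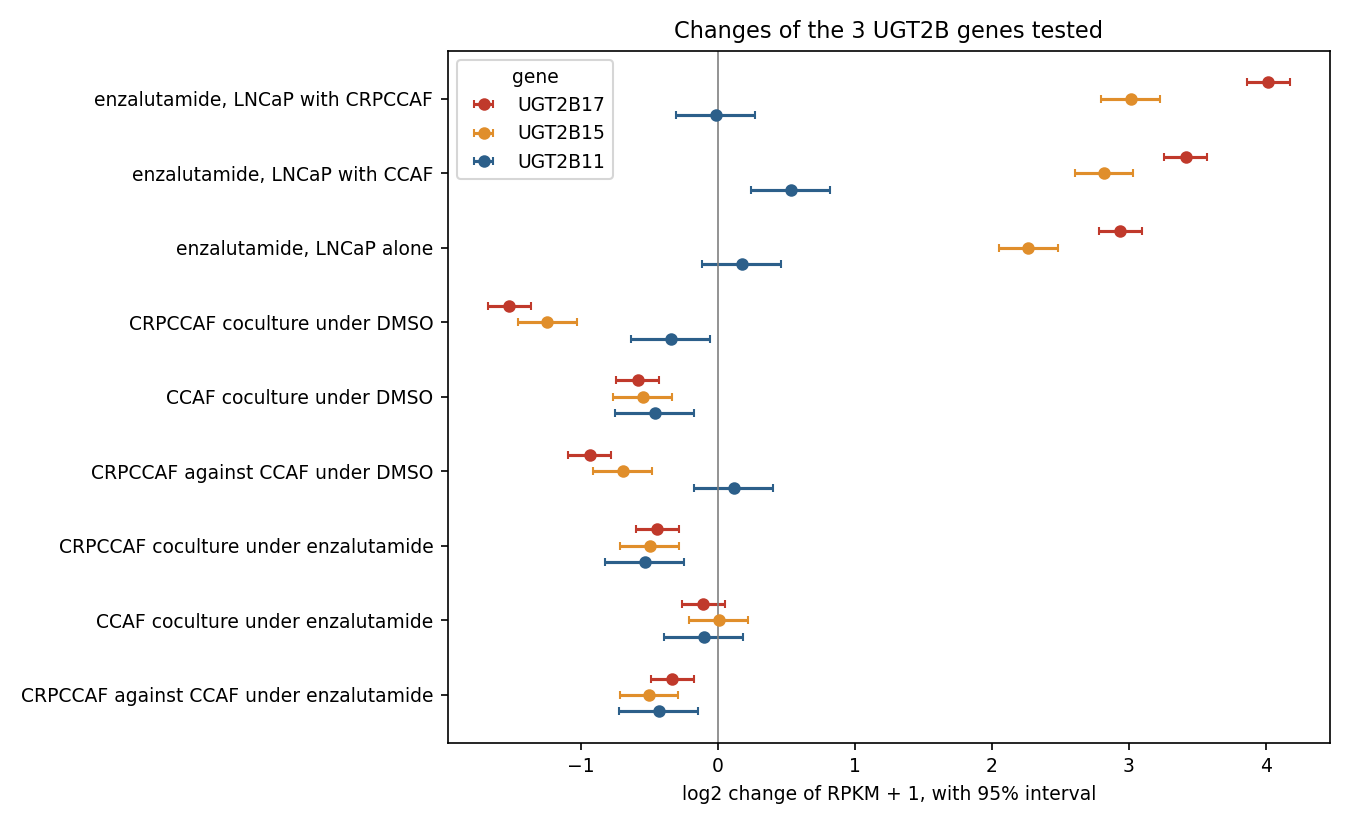
Log2 change of RPKM + 1 with its 95% interval for UGT2B17, UGT2B15 and UGT2B11 in the 9 comparisons of groups, from the fit over all 12 libraries; a positive value means higher in the group named first or under the drug. The rises of UGT2B17 and UGT2B15 under enzalutamide, 2.27 to 4.02, exceed every coculture change in size, and the coculture falls are larger under DMSO with CRPCCAF (-1.52 and -1.25) than under enzalutamide (-0.44 and -0.50).

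The enzalutamide response of UGT2B17 and UGT2B15 was larger in coculture than alone on the log2 scale. For CRPCCAF minus alone, the difference of the 2 responses was 1.08 for UGT2B17 (SE 0.0988, adjusted p = 0.00025) and 0.75 for UGT2B15 (SE 0.135, adjusted p = 0.011), where 3.68% of all genes tested had a higher response; for UGT2B11 it was -0.19 (adjusted p = 0.61). Between the means of enzalutamide and DMSO libraries UGT2B17 gained 60.9 RPKM with CRPCCAF, 74.1 RPKM with CCAF and 76.6 RPKM alone. UGT2B15 gained 21.5 RPKM with CRPCCAF, 29.9 RPKM with CCAF and 27.45 RPKM alone. In RPKM the gain was thus smallest with CRPCCAF for both genes, and with CCAF it was below that of cells alone for UGT2B17 and above it for UGT2B15. By construction, the 1.08 is the change of UGT2B17 with CRPCCAF against alone under enzalutamide (-0.44) less that under DMSO (-1.52).

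For CCAF minus alone, the difference of responses was 0.48 for UGT2B17 (SE 0.0988, adjusted p = 0.02) and 0.55 for UGT2B15 (SE 0.135, adjusted p = 0.04), where 4.56% of genes had a higher response, and 0.36 for UGT2B11 (adjusted p = 0.29). Neither call held throughout. Without the filter on low values the adjusted p was 0.055 for UGT2B17 and 0.1 for UGT2B15. UGT2B17 missed the threshold without replicate 2 of the DMSO cells alone (adjusted p = 0.052), replicate 1 of the enzalutamide cells alone (0.081), replicate 1 of CCAF with DMSO (0.076) or either replicate of CCAF with enzalutamide (0.064 each). UGT2B15 missed it without either replicate of the DMSO cells alone (0.14 and 0.052) or of the enzalutamide cells alone (0.097 and 0.11), without replicate 1 of CCAF with DMSO (0.13) or replicate 2 of CCAF with enzalutamide (0.14).

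For CRPCCAF minus CCAF the difference of responses was 0.60 for UGT2B17 (SE 0.0988, adjusted p = 0.0064), where 2.38% of genes had a higher response. It was 0.19 for UGT2B15 (95% interval -0.11 to 0.50, adjusted p = 0.47) and -0.55 for UGT2B11 (95% interval -0.96 to -0.14, adjusted p = 0.12). UGT2B28, in the fit without the filter, had a lower response with CRPCCAF than alone (log2 -0.33, adjusted p = 0.039, where 1.21% of genes had a lower response), on 3 against 28 reads with CRPCCAF and 11 against 17 reads alone, enzalutamide against DMSO.

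The sum of human fibroblast markers was higher in the cocultures than in cells alone under the same treatment, while single markers went both ways. The fibroblast libraries of the series are of mouse, and how far these human genes measure fibroblast RNA was not tested. The summed RPKM of 12 listed fibroblast markers was 26.4 to 26.7 with CRPCCAF and enzalutamide and 19.2 to 21.3 with CRPCCAF and DMSO, 13.8 to 14.5 with CCAF and enzalutamide and 12.1 to 13.3 with CCAF and DMSO, and 11.02 to 12.12 alone with enzalutamide and 9.10 to 11.5 alone with DMSO. Most of it came from COL1A1 and VIM, which cells grown alone also expressed; 2 or 3 of the 12 reached a mean of 1 RPKM in any group. VIM averaged 10.3 RPKM with CRPCCAF and 5.80 RPKM with CCAF, against 2.99 RPKM alone, all under DMSO. COL1A1 averaged 7.34 RPKM with CCAF and enzalutamide, against 7.81 RPKM alone with enzalutamide. Of the other 10, ACTA2 reached at most 1.54 RPKM on average in any group and the remaining 9 at most 0.450 RPKM. Under DMSO, LUM, COL3A1, COL1A2, DCN and POSTN had lower means in both cocultures than in cells alone, for example LUM with 0.115 RPKM with CRPCCAF and 0.209 RPKM with CCAF, against 0.450 RPKM alone. COL1A2 and POSTN were at 0 in both libraries with CRPCCAF and enzalutamide and with CCAF and enzalutamide, THY1 was at 0 with CCAF and enzalutamide, and FAP was at 0 with CRPCCAF and DMSO and alone with DMSO. Hepatocytes, which express most of the UGT2B family, were checked too: 6 of their markers summed to 1.19 to 3.64 RPKM over the 12 libraries. The part of these markers in the UGT2B results was not tested.

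Among all genes tested with an official symbol, those whose log2(RPKM + 1) followed a member most closely over the 12 libraries were, for UGT2B17, STIM1 (Pearson r = 0.996), a calcium sensor of the endoplasmic reticulum, MARVELD2 (r = 0.996), a protein of tight junctions, and UGT2B15 (r = 0.996). For UGT2B15 they were UGT2B17 (r = 0.996), STIM1 (r = 0.995) and DDC (r = 0.994), a decarboxylase of aromatic amino acids. For UGT2B17 and UGT2B15 the 12 points fall into an enzalutamide and a DMSO cluster. Their r values describe that split and shared samples and carry no test. UGT2B11 was followed by COQ6 (r = 0.963) and CBS (r = 0.949), enzymes of ubiquinone and cysteine synthesis, and by the transcription factor PITX1 (r = 0.929). The libraries did not split by treatment in UGT2B11, and its r values carry no test either.

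The other UGT genes were nearly silent. Of 16 listed, only UGT8, which makes galactosylceramide and takes no part in androgen conjugation, passed the filter; it fell under enzalutamide in all 3 cultures, by 0.87 with CRPCCAF, 0.87 with CCAF and 1.71 alone on the log2 scale (adjusted p of at most 1e-04). UGT8 reached 1 RPKM only in DMSO libraries. It thus passed the filter only where it was high, and its falls are descriptive. The UGT1A genes, which share all but their first exon, did not pass the filter. Their highest group mean was 0.672 RPKM, for UGT1A1 with CRPCCAF and enzalutamide.

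Genes that supply or handle glucuronate did not rise as a group. Of 9 listed, 5 were tested: with CRPCCAF 1 rose and 2 fell, with CCAF 1 rose and 3 fell, and alone 1 rose and 3 fell, where 24.7%, 21.5% and 25.3% of all genes tested fell with CRPCCAF, with CCAF and alone. The list's median log2 change was -0.12 with CRPCCAF, -0.23 with CCAF and -0.24 alone, beside 0.05, 0.05 and 0.04 over all genes. UGP2, which makes UDP-glucose, rose in each culture (0.70 with CRPCCAF, 0.48 with CCAF and 0.43 alone, adjusted p of at most 8.6e-05). UGDH, which oxidises UDP-glucose to the UDP-glucuronate that UGT2B enzymes use, fell with CCAF (-0.23, adjusted p = 0.0031) and alone (-0.24, adjusted p = 0.0018), and had a change of -0.12 with CRPCCAF (adjusted p = 0.06). The exporters ABCC1 (-0.44, -0.50 and -0.34 with CRPCCAF, with CCAF and alone) and ABCC4 (-0.31, -0.63 and -1.30) fell in all 3 cultures.

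Genes of androgen formation were called about as often as all genes. Of 16 listed, 9 were tested. With CRPCCAF 3 rose and 3 fell, where 30.5% of all genes tested rose and 24.7% fell. With CCAF 2 rose and 3 fell, where 26.8% rose and 21.5% fell, and alone 3 rose and 3 fell, where 30.1% rose and 25.3% fell. The list's median log2 changes were -0.07 with CRPCCAF, -0.14 with CCAF and -0.06 alone, beside 0.05, 0.05 and 0.04 over all genes. CYP11A1, which cleaves the cholesterol side chain, fell by 1.82 with CRPCCAF, 1.73 with CCAF and 1.13 alone (adjusted p of at most 3.5e-05). CYP11A1 and HSD17B6, another of the genes tested, reached 1 RPKM only in DMSO libraries. Both so entered the test only where they were high. Any calls of these genes are descriptive, though the counts above include both genes. AKR1C3, which reduces androstenedione to testosterone, rose by 1.43 with CRPCCAF, 1.01 with CCAF and 0.48 alone (adjusted p of 1e-05, 0.00014 and 0.0088). SRD5A3, of the steroid reductase family, rose with CRPCCAF (1.16, adjusted p = 6.9e-08), with changes of -0.09 with CCAF and -0.06 alone that did not pass; its response with CRPCCAF exceeded that alone by 1.22 (adjusted p = 2.3e-05) and that with CCAF by 1.24 (adjusted p = 1.4e-05). CYB5A, a partner of steroid-converting cytochromes P450, fell in all 3 cultures (-0.39, -0.20 and -0.56).

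Other genes of androgen inactivation moved by less than UGT2B17 and UGT2B15. Of 17 listed, 9 were tested. With CRPCCAF 5 rose and 2 fell, beside the same 30.5% and 24.7% of all genes, with CCAF 5 rose and 2 fell, beside 26.8% and 21.5%, and alone 4 rose and 2 fell, beside 30.1% and 25.3%. The list's median log2 changes were 0.29 with CRPCCAF, 0.20 with CCAF and 0.26 alone, beside the all-gene medians of 0.05, 0.05 and 0.04. The sulfotransferase SULT1A1 rose by 0.29, 0.55 and 0.61, the reductase AKR1C1 by 1.89, 0.49 and 0.33, and the steroid hydroxylase CYP3A5 by 1.17, 0.42 and 0.44 with CRPCCAF, with CCAF and alone. AKR1C2, which inactivates dihydrotestosterone, rose with CRPCCAF (1.12, adjusted p = 5.6e-05), with changes of 0.07 with CCAF and 0.26 alone that did not pass; its response with CRPCCAF exceeded that alone by 0.87 (adjusted p = 0.022) and that with CCAF by 1.05 (adjusted p = 0.0084). AKR1C2 reached 1 RPKM only in the libraries with CRPCCAF and enzalutamide, and CYP3A5 only in enzalutamide libraries. Both thus entered the test only through libraries where they were high. Their calls are descriptive, though the counts above include them. AKR1C1, AKR1C2 and AKR1C3 are close copies of each other, and the sources used here do not say how reads were split between them. None of the genes tested in the 4 lists rose as far as UGT2B15 or UGT2B17 in the same culture.

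**Figure D5:**
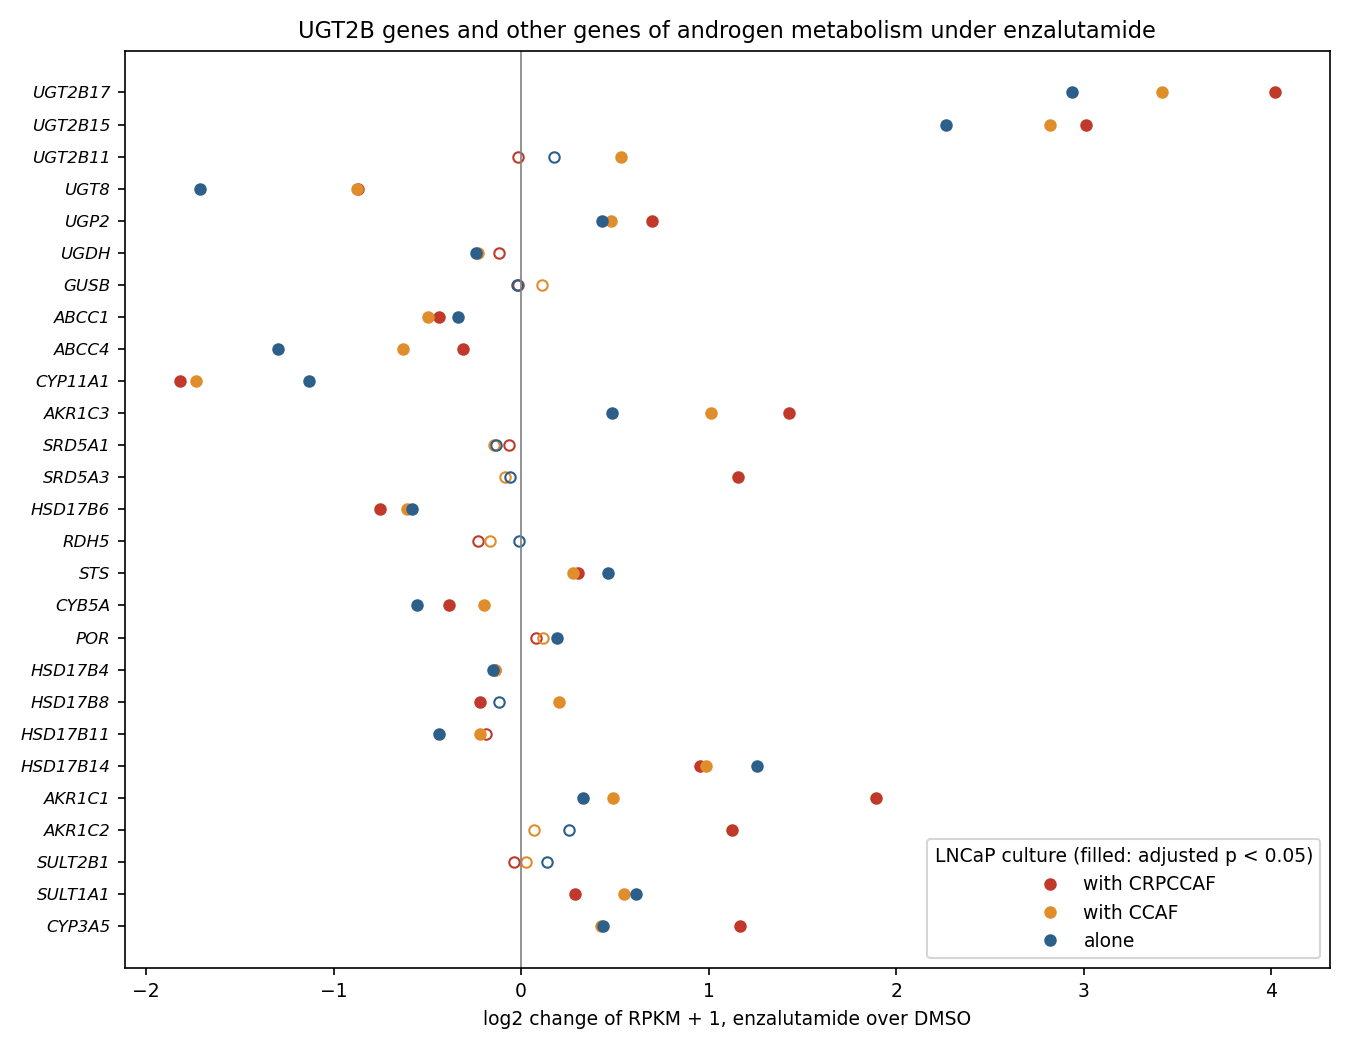
Log2 change of RPKM + 1, enzalutamide over DMSO, for the 3 UGT2B genes tested (top rows) and the tested genes of the other UGT, glucuronate, androgen formation and androgen inactivation lists, in cells with CRPCCAF (red), with CCAF (orange) and alone (blue); filled points have a limma adjusted p below 0.05. UGT2B17 (2.94 to 4.02) and UGT2B15 (2.27 to 3.01) lie to the right of every other gene, of which AKR1C1 with CRPCCAF is the nearest at 1.89.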

How the data were processed

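RNA was measured in 12 libraries of LNCaP cells, made per the labels' protocols from Trizol-extracted total RNA with a NEBNext Ultra kit and sequenced on a HiSeq instrument. The authors deposited 1 table of RPKM per gene, as its column headers state. HISAT2, HTSeq, DESeq2, hg19 and mm10 are listed in the submitters' processing notes, with neither versions nor roles. The mouse fibroblast libraries of the series were not used here. Of 44591 names in the table, 27 were calendar dates and were removed.

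All 12 libraries entered 1 linear model (limma 3.58.1, R 4.3.3) of log2(RPKM + 1) with a term for each of the 6 groups, no replicate block and a variance trend on the mean, over 16042 genes at 1 RPKM or more in at least 2 libraries, which left 6 residual degrees of freedom. A change on this scale understates that of low genes. P values are two-sided, adjusted by Benjamini-Hochberg within each of 12 comparisons over all genes tested, with a threshold of 0.05. Folds are ratios of mean RPKM. Each fit was repeated with 0.1 as pseudocount, without the filter (33693 genes above 0), after median-of-ratios scaling, with replicate number as blocking factor, and without each library in turn. Simulated data of 15582 genes were built from means over all 12 libraries, with changes put into cells alone with enzalutamide. There 100 of 100 genes changed 2-fold and 100 of 100 changed 4-fold were found, with 9 wrong calls. Far fewer genes were changed in that simulation than the 8887 called in the real comparison. Samples with the same replicate number did not deviate together (correlations of -0.062 to 0.084 across genes). These correlations cannot say whether such samples were prepared together.

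Reads were recovered from the RPKM where at least 6 libraries were above 0: the smallest common step of a gene was solved to within 0.02 reads, and all solved values (100%) were within 0.05 reads of a whole number. Read ratios were divided by relative depth, with exact binomial 95% intervals (SciPy 1.17.1). A count of 0 allows up to 3 reads. Coding sequences were aligned with Biopython 1.88.

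The members, the gene lists and the tests were chosen with earlier results of these data known. Named genes are all 6 members, KLK3, FKBP5 and TMPRSS2, up to 4 genes of each pathway list with the smallest adjusted p under enzalutamide, and the 3 genes most correlated with each tested member. UGT1A1, HSD17B6 and the fibroblast markers are named beyond that rule.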

Additional observations from a re-analysis of the deposited data

Results flagged for a closer look

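The response to enzalutamide differed between cultures for UGT2B17 and UGT2B15, by a test of the difference itself in limma, with p adjusted over 16042 genes. With CRPCCAF it exceeded the response of cells alone by 1.08 for UGT2B17 (adjusted p = 0.00025) and by 0.75 for UGT2B15 (adjusted p = 0.011) on the log2 scale. With CCAF it exceeded the response of cells alone by 0.48 for UGT2B17 (adjusted p = 0.02) and by 0.55 for UGT2B15 (adjusted p = 0.04). With CRPCCAF it exceeded the response with CCAF by 0.60 for UGT2B17 (adjusted p = 0.0064). In each of these the enzalutamide libraries of the cultures lay closer together than the DMSO libraries on the log2 scale. Neither call for CCAF against cells alone held in all alternative fits. In RPKM the gain under enzalutamide was smallest with CRPCCAF for both genes. With CCAF that gain was below that of cells alone for UGT2B17 and above it for UGT2B15.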

How the results depend on the processing

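Among the values of single members under the alternatives, 300 kept their side of the threshold, 22 lost a call and 2 gained one. Where either fit had a call, 0 changed direction. Uncalled values near 0 could change sign, such as UGT2B11 under enzalutamide with CRPCCAF (-0.02, and -0.08 to 0.05 over the alternatives). The number of members called moved under these settings. Without the filter on low values, 4 members were called for CRPCCAF cocultures against cells alone under DMSO, beside 4347 of all 33693 genes. UGT2B28 rose there, and UGT2B17, UGT2B15 and UGT2B10 fell. For CRPCCAF against CCAF cocultures under enzalutamide 5 members were called, beside 4963 genes. They include UGT2B11, left out of such counts above, and UGT2B28, which rests on few reads. The response with CCAF minus that alone had 0 members called, beside 807 genes. With the replicate block 1 was called for the response with CCAF minus that alone, beside 1025 of 16042 genes. There the limma adjusted p of UGT2B15 was 0.058. The block changed no other member's call. Leaving out 1 library left 1 to 2 members called for CCAF cocultures against cells alone under DMSO, and 0 to 2 for the response with CCAF minus that alone. A lone remaining library is assumed to vary like the other groups.

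In the comparisons listed next, the number of calls over all genes changed by more than 1.5 times in at least 1 fit without 1 library. In the remaining comparisons it stayed within 1.5 times. CCAF cocultures against cells alone had 640 to 826 calls under DMSO, against 1518 with all libraries, and 1673 to 1946 under enzalutamide, against 3107. CRPCCAF against CCAF cocultures under DMSO had 827 to 1959, against 2156. The differences of responses had 627 to 814 (CCAF minus alone, against 1125), 559 to 1123 (CRPCCAF minus alone, against 1125) and 582 to 1362 (CRPCCAF minus CCAF, against 1034). The cause was not tested. Depth limits UGT2B7, UGT2B10 and UGT2B28, which had at most 40 reads in any library, and UGT2B11, which had 16 to 57.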
